A study of Homo sapiens with 6 samples.

Results

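The genes described here are 44 genes of mitosis and the G2/M phase of the cell cycle, taken by symbol from a fixed list, each with a mean normalized read count of 10 or more over 6 RNA-seq libraries. They are 44 of the 34114 genes in the table and of the 19575 genes that passed the same minimum. All 44 names on the list were found and all 44 passed, the lowest mean being that of CDC25C, so none was lost to the filter on low values. The rule used gene names and mean levels, and no ratio between conditions. The list itself was chosen with earlier results of these data known.

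The libraries came from the established human acute myeloid leukemia lines MOLM-14, NOMO-1 and SKM-1. Sampling was at 72 h after transfection. Each line carried either an shRNA (a short hairpin RNA that lowers its target's messenger RNA) against NCAM1, the surface adhesion protein also called CD56, or a scrambled shRNA. Each line gave 1 NCAM1 knockdown library and 1 control library, so the knockdown group and the control group each hold 3 libraries and no line has a replicate of its own. The column headers give the knockdown libraries of all 3 lines the same hairpin label, with an extra letter of unstated meaning in SKM-1, and p-values measure only the spread of the knockdown-over-control ratio between the 3 lines.

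Cells enter mitosis when CDK1 bound to cyclin B becomes active, a step driven by CDC25 phosphatases and reinforced by Polo and Aurora kinases. The spindle checkpoint then holds cells in metaphase until every chromosome is attached at its kinetochore, after which the anaphase-promoting complex, with CDC20 and UBE2C, marks cyclin B and securin for destruction. Most of these genes are transcribed in G2 and M through FOXM1 and the MYBL2-MuvB complex, so their messenger RNA in a bulk library follows the share of cells in those phases. In bulk libraries such as these, fewer cells in G2 or M and less RNA of these genes per cell cannot be told apart.

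Gene-assigned reads numbered 43745763 to 47688779 in the knockdown libraries and 41916991 to 45542099 in the control libraries. NCAM1 (ENSG00000149294) was at 1896, 312 and 101 normalized counts in the MOLM-14, NOMO-1 and SKM-1 knockdown libraries, against 6004, 1163 and 12537 in their control libraries. It was therefore lower in the knockdown library of every line, by far the most in SKM-1, and its mean log2 ratio of -3.50 (SD 2.98, n = 3) had an adjusted p of 0.779 (limma). Of 10 myeloid identity markers, 9 passed the filter and CD68 was near 0, at 10.4 counts or fewer in every library. Of 11 markers of other cell types, 7 were found in the table, and these summed to 173 to 3313 counts in knockdown libraries and 148 to 4269 in control libraries. Most of the higher sums came from CD3D in NOMO-1 and EPCAM in SKM-1, each present in both libraries of its line. The SKM-1 pair stood apart from the other pairs over the whole transcriptome: the log2 ratios of all tested genes had an SD of 0.55 for MOLM-14, 0.70 for NOMO-1 and 1.43 for SKM-1. For that reason results are given by line and with SKM-1 left out. The 10 myeloid markers summed to 45230 to 84871 counts in knockdown libraries and 49148 to 778148 in control libraries. MPO, the granule enzyme myeloperoxidase, was at 6166 counts in SKM-1 knockdown cells and 728824 in SKM-1 control cells. The part of that wider difference in the results below was not tested.

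No mitotic gene was called between knockdown and control. In SKM-1, 40 of the 44 had a lower level in the knockdown library, with a median log2 ratio of -0.42, while the medians were -0.05 in MOLM-14 and -0.02 in NOMO-1. With limma on log2(normalized count + 1), cell line as a block and Benjamini-Hochberg adjustment over all 19575 genes, 0 of 44 members passed an adjusted p of 0.05, and neither did any other gene (0.0% of genes tested). The lowest adjusted p of a member was 0.779 (limma). At an unadjusted p under 0.05 limma found 0 members, against 4.48% of all genes. edgeR called 0 members, with a background of 0.0%, and DESeq2 also called 0, with a background of 0.22%. KIF15 was the only member under an unadjusted p of 0.05 in DESeq2, where 5.63% of all genes were, with an adjusted p of 0.734 (DESeq2).

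Counted by line, the members' ratios in MOLM-14 and NOMO-1 lay close to 1. In MOLM-14, 28 of 44 were lower in the knockdown library, against 49.4% of all genes tested. In NOMO-1, 24 of 44 were lower, against a background of 50%, and the sign of the small median there turned to 0.04 when libraries were scaled by total counts. In SKM-1, 40 of 44 were lower (90.9%), against a background of 50.6%, and the count stayed at 40 under total-count scaling. The number lower by at least 1.5-fold was 0 in MOLM-14 (background 9.15%), 1 in NOMO-1 (background 16.8%) and 15 in SKM-1 (34.1%, against a background of 27.4%). The number higher by at least 1.5-fold was 0 in MOLM-14 (background 8.04%), 1 in NOMO-1 (background 12.1%) and 0 in SKM-1 (background 25.3%). The gene lower in NOMO-1 was MKI67 and the one higher there was UBE2C. The members' share below 1 in SKM-1 was thus well above that of all genes, while their share lower by 1.5-fold was near it and the share lower by 2-fold (13.6%) below it. At 2-fold or more, 6 members were lower in SKM-1 (background 16.5%), namely UBE2C, KIF15, CDC25B, NUSAP1, AURKB and TPX2, and none was higher (background 15.7%). No member differed by 2-fold in MOLM-14 (backgrounds 4.03% lower and 3.56% higher) or in NOMO-1 (backgrounds 7.42% lower and 4.06% higher).

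The SKM-1 ratios of the members were thus mostly below 1 and mostly modest. The members spread less than other genes in each line: the SD of their log2 ratios was 0.14 for MOLM-14, 0.25 for NOMO-1 and 0.61 for SKM-1. Of all genes tested, 33% had an SKM-1 ratio below the members' median, 48.8% in NOMO-1 and 41.8% in MOLM-14. Over the 3 lines the median of the members' mean log2 ratio was -0.19, and 37 of 44 means were below 0 against a background of 50.6%. Without SKM-1 that median was -0.02. A lower level in every line was found for 17 members (background 15.9%) and a higher level in every line for none (background 14.6%). In the MOLM-14 and NOMO-1 pairs alone, 18 of 44 members were lower in both, against 29.6% of all genes. These counts are descriptions of genes that share their libraries and tend to move together, and no test was made over the set.

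**Figure D1:**
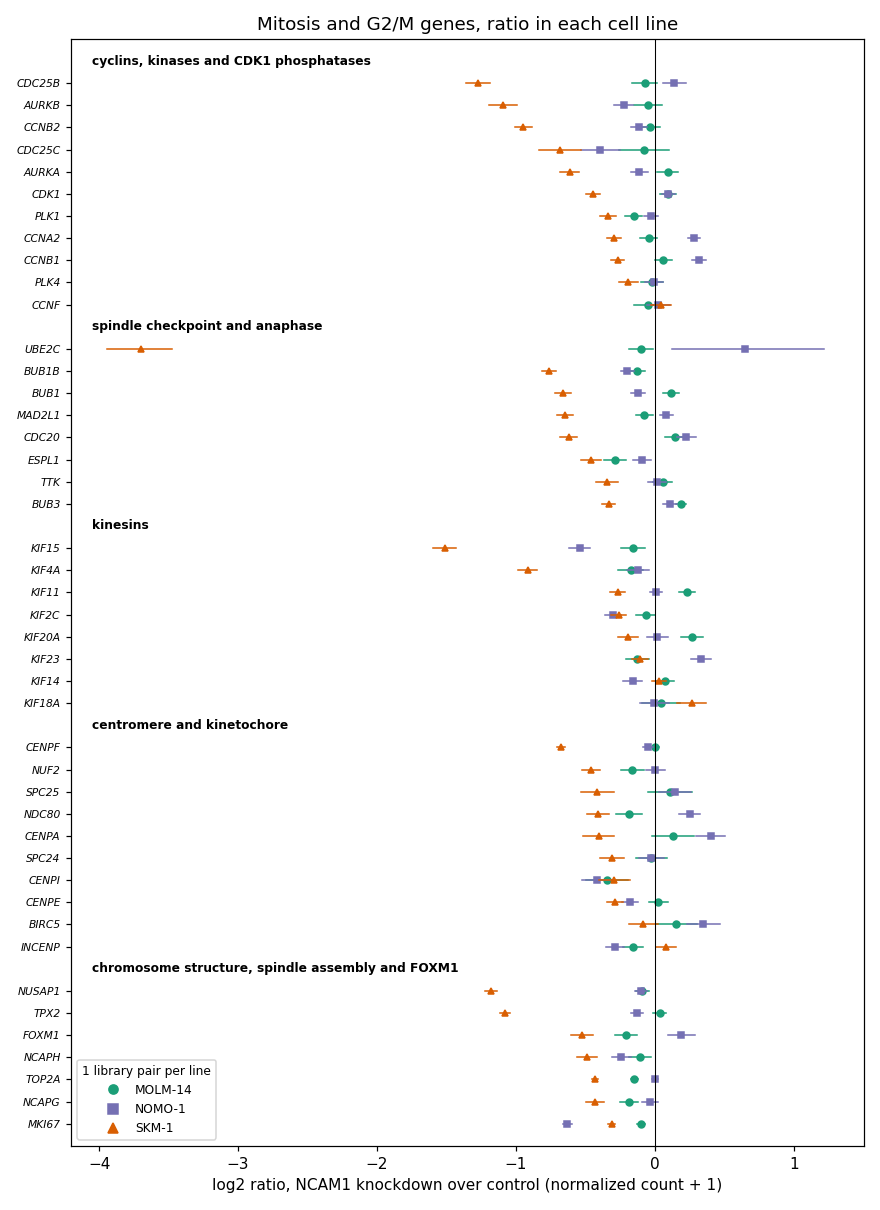
Log2 ratio of NCAM1 knockdown over control for each of the 44 mitosis and G2/M genes in MOLM-14 (circles), NOMO-1 (squares) and SKM-1 (triangles), ordered within 5 role classes by the SKM-1 ratio. Bars are exact 95% intervals from read counts and cover counting error only; the SKM-1 triangles lie left of 0 for 40 of 44 genes, with UBE2C at -3.70, while most circles and squares lie near 0.

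The plot of ratios by gene shows the SKM-1 values spread to the left in every class, with the other lines' values clustered around 0. In what follows, values are normalized read counts in the order MOLM-14, NOMO-1 and SKM-1. Beside the class counts in SKM-1, 50.6% of all genes tested were lower there and 27.4% by at least 1.5-fold. Log2 ratios set knockdown over control after adding 1 to each normalized count. An interval in brackets is an exact conditional 95% interval from the recovered reads, for counting error within 1 pair of libraries. Such an interval says nothing of variation between cultures.

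Among the cyclins, kinases and CDK1 phosphatases, 10 of 11 genes were lower in SKM-1 knockdown cells and 5 by at least 1.5-fold. The class medians were log2 -0.05, -0.01 and -0.45 in MOLM-14, NOMO-1 and SKM-1. No gene of the class passed the test. CCNB1, the main cyclin B, was at 5094, 6697 and 5931 counts after knockdown, against 4886, 5391 and 7151 in controls. Its sister CCNB2 was at 3251, 4158 and 3115 counts after knockdown, against 3328, 4510.3 and 6015 in controls. Of the B cyclins, CCNB2 thus had the lower SKM-1 ratio, 1.93-fold lower (1.85 to 2.01), against 1.21-fold lower (1.17 to 1.25) for CCNB1, whose NOMO-1 knockdown library was the higher of its pair. CDK1, the kinase that both activate, was at 5878, 7209 and 5158 counts after knockdown, against 5516, 6742 and 7033 in controls. CCNA2, the cyclin of S phase and early mitosis, was at 4943, 7734 and 5371 counts after knockdown, against 5104, 6367 and 6591 in controls. For CDK1 the knockdown library was slightly above its control in MOLM-14 and NOMO-1 and 1.36-fold lower (1.32 to 1.41) in SKM-1, the knockdown and control ranges overlapping.

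The phosphatases that remove the inhibitory phosphates of CDK1 had lower SKM-1 ratios than the kinase itself. CDC25B, which starts CDK1 activation in late G2, was at 2094, 2482 and 1426 counts after knockdown, against 2205, 2254 and 3448 in controls. CDC25C, which amplifies it at mitotic entry, was at 541, 692 and 561 counts after knockdown, against 571, 909.6 and 902 in controls. CDC25B was 2.42-fold lower (2.28 to 2.57) in SKM-1, where its control library was the highest of the 6 and its knockdown library the lowest, and it was slightly higher after knockdown in NOMO-1. CDC25C was lower after knockdown in every line, with a mean log2 ratio of -0.39 (SD 0.30, n = 3; limma adjusted p = 0.779).

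The mitotic kinases differed in how far their SKM-1 libraries were apart. PLK1, the Polo kinase of mitotic entry and spindle assembly, was at 4745, 5374 and 4428 counts after knockdown, against 5283, 5485 and 5599 in controls. AURKA, which matures centrosomes and builds the spindle, was at 3086, 3713 and 2796 counts after knockdown, against 2899, 4012 and 4275 in controls. AURKB, the kinase of the chromosomal passenger complex, was at 1778, 2737 and 1139 counts after knockdown, against 1841, 3202 and 2429 in controls. In SKM-1 the ratio was 1.26-fold lower (1.22 to 1.31) for PLK1, 1.53-fold lower (1.46 to 1.60) for AURKA and 2.13-fold lower (1.99 to 2.29) for AURKB. The mean log2 ratio of AURKB was -0.46 (SD 0.56, n = 3; limma adjusted p = 0.779). PLK4, which licenses centriole duplication, and CCNF, an F-box protein that directs ubiquitin ligase activity in G2, had ratios near 1 in every line. CCNF was the only gene of the class above 1 in SKM-1, at 3212 counts after knockdown and 3115 in the control, with log2 ratios of -0.05, 0.02 and 0.04 over the lines.

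The spindle checkpoint and anaphase genes had the lowest class median in SKM-1. All 8 were lower in SKM-1 knockdown cells, 5 of them by at least 1.5-fold, with a median log2 ratio of -0.63, against -0.01 in MOLM-14 and 0.05 in NOMO-1. BUB1, the checkpoint kinase at the kinetochore, was at 5529.6, 5336 and 3759 counts after knockdown, against 5101, 5808 and 5958 in controls. BUB1B, which encodes the checkpoint protein BUBR1, was at 4908, 5842 and 4565 counts after knockdown, against 5363, 6704 and 7744 in controls. BUB3, their common binding partner, was at 14518, 6801 and 6950.2 counts after knockdown, against 12774, 6313 and 8756 in controls. BUB1B was lower after knockdown in all 3 lines, with a mean log2 ratio of -0.36 (SD 0.35, n = 3; limma adjusted p = 0.779), and by 1.70-fold (1.64 to 1.76) in SKM-1. BUB3 was higher in the knockdown library in MOLM-14 and NOMO-1 and lower in SKM-1, and its level was set mainly by the line, with both MOLM-14 libraries far above the other 4.

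MAD2L1, the checkpoint protein that captures CDC20, was at 4536, 6529 and 4000.3 counts after knockdown, against 4784, 6172 and 6268 in controls. TTK, the kinase that starts checkpoint signalling and is also called MPS1, was at 3593, 3572 and 2258 counts after knockdown, against 3460.4, 3533 and 2870.4 in controls. For TTK both SKM-1 libraries lay below the other 4, and the pairs of MOLM-14 and NOMO-1 were nearly level. CDC20, the activator of the anaphase-promoting complex, was at 3752, 3541 and 3271 counts after knockdown, against 3393, 3026 and 5036 in controls. ESPL1, the separase that cuts cohesin at anaphase, was at 2655, 3305 and 2510.2 counts after knockdown, against 3243, 3532 and 3459 in controls. CDC20 was above its control in MOLM-14 and NOMO-1 and 1.54-fold lower (1.47 to 1.61) in SKM-1, where the control library stood above the other 5. ESPL1 was lower after knockdown in every line, with log2 ratios of -0.29, -0.10 and -0.46 (mean -0.28, SD 0.18, n = 3; limma adjusted p = 0.779).

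UBE2C, the ubiquitin-conjugating enzyme that hands the first ubiquitin to substrates of the anaphase-promoting complex, was the member that differed most among libraries. It was at 2123, 70.2 and 155 counts after knockdown, against 2278, 44.4 and 2024 in controls. Its levels were near 2000 or above in both MOLM-14 libraries and the SKM-1 control library, and far lower in both NOMO-1 libraries and the SKM-1 knockdown library. In SKM-1 the knockdown library was 13.0-fold lower (11.1 to 15.4) than the control, a log2 ratio of -3.70. In NOMO-1 the ratio was 1.58 (1.09 to 2.33), resting on 77 reads after knockdown and 47 in the control. With log2 ratios of opposite sign the mean was -1.05 (SD 2.32, n = 3; limma SE 0.89, adjusted p = 0.784). UBE2S, the enzyme that extends the ubiquitin chains begun by UBE2C, was at 1557, 2264 and 1054 counts after knockdown, against 1717, 1997 and 1426 in controls. UBE2S was thus above its MOLM-14 level in NOMO-1, where UBE2C was low, and was lowest in SKM-1 knockdown cells, while CDC20 was lowest in the NOMO-1 control library. UBE2C has near-identical processed pseudogenes whose shared reads counting can split or drop. Whether this affected its values was not tested. The pseudogene UBE2CP4 was at 15.7, 0 and 0 counts after knockdown, against 15.6, 0 and 15.2 in controls, which follows UBE2C. UBE2CP2 was at 5.22, 7.30 and 25.7 counts after knockdown, against 5.58, 7.56 and 11.2 in controls, and UBE2CP1 at 14.6, 4.56 and 2.75 after knockdown, against 6.69, 5.67 and 5.08 in controls. UBE2CP2 thus ran the other way in SKM-1, at 28 reads after knockdown and 11 in the control, beside 169 and 1992 for UBE2C. UBE2CP1 was at 14 reads or fewer in every library.

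**Figure D2:**
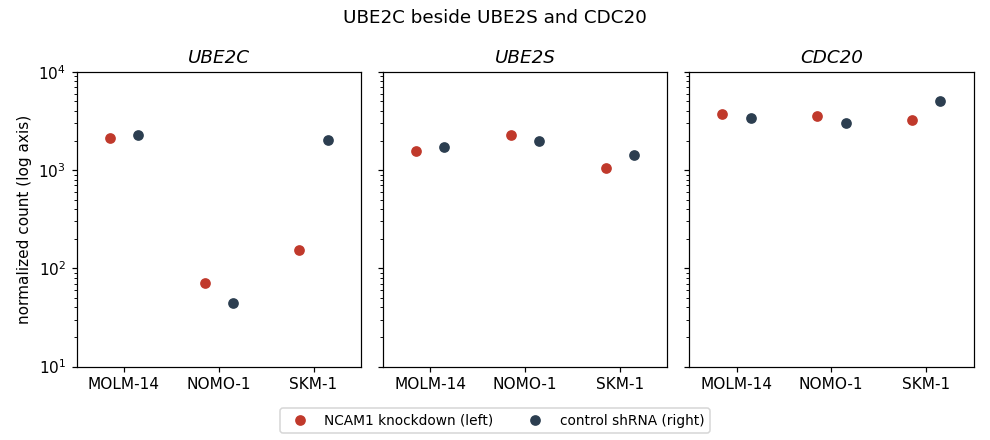
Normalized read counts on a log axis for UBE2C, UBE2S and CDC20 in each line, with the NCAM1 knockdown library left of the control library; each point is 1 library. UBE2C lies near 2000 in MOLM-14 and in the SKM-1 control library and at 44.4 to 155 in the other 3 libraries, while UBE2S and CDC20 stay between 1054 and 5036 in every library.

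The plot of UBE2C beside UBE2S and CDC20 shows that neither of the other genes has a gap of that size between libraries. UBE2S was added to it after its values were seen.

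Among the kinesins, motor proteins that move along or reshape spindle microtubules, 6 of 8 genes were lower in SKM-1 knockdown cells (background 50.6%). Of the 8, 2 were lower by 1.5-fold or more, a share near the background of 27.4%. The class medians were log2 -0.01, -0.07 and -0.23 in the 3 lines, and the class median of the mean ratio, -0.02, turned to 0.02 under total-count scaling. KIF15, a motor that helps keep the bipolar spindle apart, was at 2272, 2378 and 1507 counts after knockdown, against 2535, 3466 and 4302 in controls. It was lower after knockdown in every line, with log2 ratios of -0.16, -0.54 and -1.51, and every knockdown library lay below every control library, as for no other member (background 2.3%). Its mean log2 ratio of -0.74 (SD 0.70, n = 3; limma SE 0.31) had the smallest limma p among the members, 0.0623, and an adjusted p of 0.779. KIF4A, a chromosome-bound motor of the anaphase midzone, was at 2075, 2306 and 2567 counts after knockdown, against 2345, 2515 and 4842 in controls. KIF4A was 1.89-fold lower (1.8 to 1.98) in SKM-1, where the control library was well above the other 5.

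The other kinesins showed smaller or mixed differences. KIF11, the Eg5 motor that pushes spindle poles apart, was at 5990.0, 7253 and 5280.2 counts after knockdown, against 5105, 7219 and 6364 in controls. KIF20A, a motor needed for cytokinesis, was at 2919, 2788 and 3024 counts after knockdown, against 2427, 2755 and 3459.7 in controls. KIF23, the motor of centralspindlin, was at 2386, 3209 and 4435 counts after knockdown, against 2607, 2547 and 4773 in controls. KIF20A had the highest MOLM-14 ratio of all members, a log2 ratio of 0.27, and KIF11 was also higher there after knockdown, while both were lower in SKM-1. KIF18A, which dampens chromosome movements, was at 953, 1368 and 1558 counts after knockdown, against 927, 1372 and 1298 in controls. Its SKM-1 log2 ratio of 0.26 was the highest of any member in that line, so the gene ran opposite to most of the set there. KIF14, a motor of cytokinesis, was also slightly above 1 in SKM-1 (log2 ratio 0.03), and KIF2C, which depolymerizes microtubules, was lower after knockdown in every line, with log2 ratios of -0.07, -0.30 and -0.26.

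The centromere and kinetochore genes were lower in SKM-1 knockdown cells for 9 of 10, with 1 lower by at least 1.5-fold and class medians of log2 -0.02, -0.01 and -0.36. CENPI, a subunit of the inner kinetochore, was at 695, 1033 and 1148 counts after knockdown, against 884, 1377 and 1407 in controls. It was lower after knockdown in every line by a similar amount: its log2 ratios were -0.35, -0.41 and -0.29 (mean -0.35, SD 0.06, n = 3; limma SE 0.18, adjusted p = 0.779). CENPI had the lowest ratio of any member in MOLM-14. CENPF, a large protein that coats kinetochores in G2 and M, was at 20631, 11256 and 18176 counts after knockdown, against 20679, 11664 and 29066 in controls. CENPF was nearly level in MOLM-14 and NOMO-1 and 1.60-fold lower (1.57 to 1.63) in SKM-1.

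CENPA, the histone variant that marks centromeres, was at 847, 1600.2 and 1109 counts after knockdown, against 774, 1212 and 1468 in controls. CENPE, a kinetochore motor that aligns chromosomes, was at 3880.2, 4313 and 4018 counts after knockdown, against 3817, 4892 and 4899 in controls. NDC80, the microtubule-binding subunit of the outer kinetochore, was at 1785, 2940.4 and 2150.3 counts after knockdown, against 2032, 2476 and 2860.2 in controls. CENPA was higher after knockdown in MOLM-14 and NOMO-1 and lower in SKM-1, with log2 ratios of 0.13, 0.40 and -0.40. The partners of NDC80 in its complex, NUF2, SPC24 and SPC25, were lower in SKM-1 with log2 ratios of -0.46, -0.31 and -0.41, beside -0.41 for NDC80 itself. In NOMO-1 the same 4 subunits had log2 ratios of 0.00 for NUF2, -0.03 for SPC24, 0.14 for SPC25 and 0.25 for NDC80.

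The chromosomal passenger complex did not show 1 pattern across its subunits. BIRC5, its survivin subunit, was at 882, 1209 and 1363 counts after knockdown, against 793, 951 and 1446 in controls. INCENP, the scaffold that activates AURKB, was at 3394, 3183 and 3277 counts after knockdown, against 3790.5, 3886 and 3100.0 in controls. In SKM-1, where AURKB was 2.13-fold lower, BIRC5 had a log2 ratio of -0.08 and INCENP one of 0.08, above 1. In MOLM-14 and NOMO-1, BIRC5 was higher after knockdown and INCENP lower. For INCENP that direction was the opposite of the one in SKM-1. The SKM-1 ratio of BIRC5 had an interval of 0.88 to 1.01, which includes 1. These differences between subunits were not tested.

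The genes of chromosome structure and spindle assembly and FOXM1 were all lower in SKM-1 knockdown cells, 7 of 7, with 2 lower by at least 1.5-fold and class medians of log2 -0.11, -0.10 and -0.49. TPX2, which carries AURKA to the spindle, was at 8179, 7316 and 8133 counts after knockdown, against 7992, 7995 and 17170.5 in controls. NUSAP1, a microtubule-bundling protein of the spindle, was at 6774, 8000.1 and 5602 counts after knockdown, against 7213, 8579 and 12695 in controls. For both genes the SKM-1 control library was far above the other 5, and the ratio there was 2.11-fold lower (2.06 to 2.17) for TPX2 and 2.27-fold lower (2.20 to 2.34) for NUSAP1. The TPX2 level in SKM-1 knockdown cells lay within the range of the MOLM-14 and NOMO-1 libraries, while that of NUSAP1 lay below it.

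MKI67, the Ki-67 protein used as a proliferation marker, was at 23835, 13204 and 20949 counts after knockdown, against 25583, 20454 and 25985 in controls. It was lower after knockdown in all 3 lines, and unlike most members it was lowest relative to its control in NOMO-1, with log2 ratios of -0.10, -0.63 and -0.31 (mean -0.35, SD 0.27, n = 3; limma adjusted p = 0.779). TOP2A, the topoisomerase that untangles sister chromatids, was at 25623, 30612 and 25621 counts after knockdown, against 28401, 30577 and 34532 in controls. NCAPG and NCAPH, subunits of condensin I, had log2 ratios of -0.19, -0.04 and -0.43, and of -0.11, -0.24 and -0.49. Each of TOP2A, NCAPG and NCAPH had its lowest level of the 6 libraries in SKM-1 knockdown cells. FOXM1, the transcription factor of the G2/M program, was at 2536, 1774 and 2006 counts after knockdown, against 2932, 1557 and 2889.7 in controls, with log2 ratios of -0.21, 0.19 and -0.53. Its direction in NOMO-1 was thus the opposite of that in the other lines.

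Set against the MOLM-14 and NOMO-1 libraries, the SKM-1 control library stood high for a larger share of members than of all genes. The SKM-1 control library was the highest of the 6 for 25 of 44 members (56.8%), against 20.1% of all genes tested. The SKM-1 knockdown library was the lowest of the 6 for 16 members (36.4%), against 25.1% of all genes. For 10 members (22.7%, against 8.27% of all genes) the SKM-1 control library was above, and its knockdown library within, the range of the 4 libraries of the other lines; CDC20, CENPF, TPX2 and MKI67 are among them. For 5 members (11.4%, near the 10.3% of all genes) the control was within that range and the knockdown library below it. A high SKM-1 control library was not particular to the members. Among 24 genes of G1/S and DNA replication, described below, it was the highest of the 6 libraries for 14 (58.3%). For 5 of the 24 (20.8%) the control was above that range and the knockdown library within it. The SKM-1 knockdown library was the lowest of the 6 for 13 of the 24 (54.2%). With 1 library per condition, a high control culture and a low knockdown culture cannot be told apart.

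**Figure D3:**
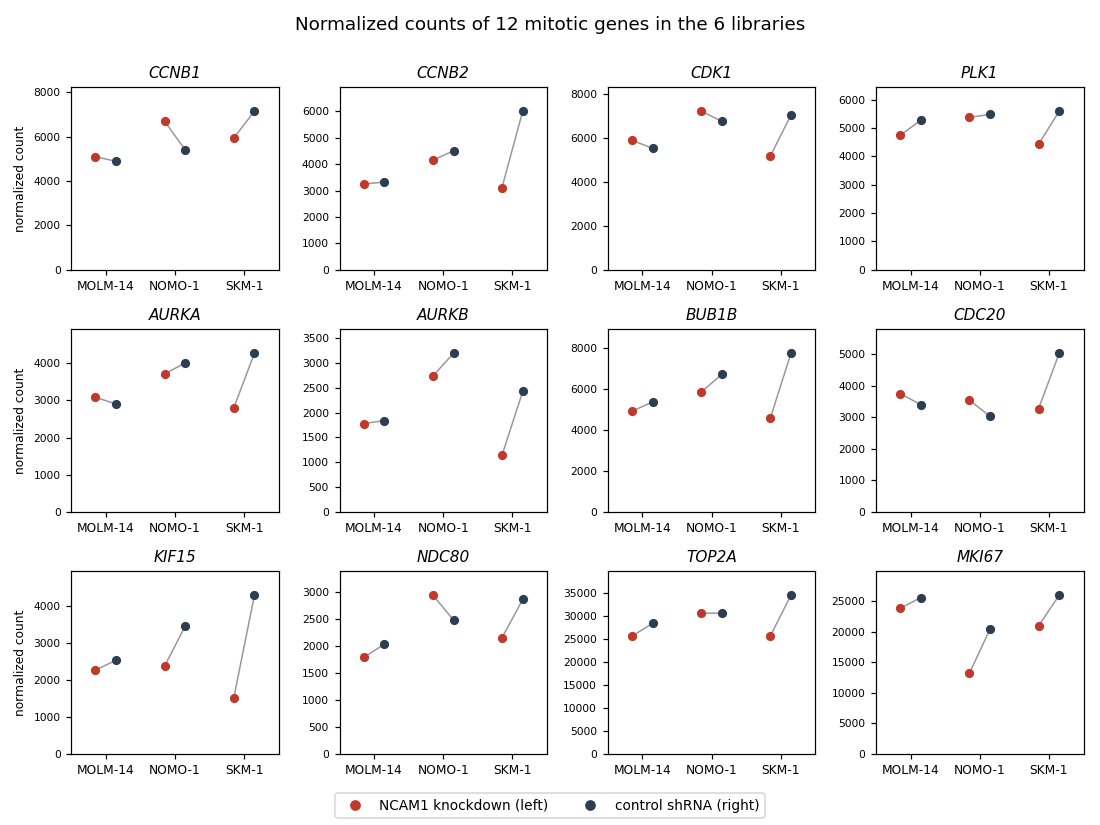
Normalized read counts of 12 of the members in the 6 libraries, each panel with its own linear axis from 0, the NCAM1 knockdown library left of the control library and a line joining the pair. In SKM-1 the knockdown point lies below the control point in all 12 panels, while in MOLM-14 and NOMO-1 pairs lie in both directions, as for CDC20 and AURKA.

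The panels of counts by library show that, of these 12 genes, KIF15 and MKI67 had the widest gap relative to control in NOMO-1, with knockdown libraries at 2378 and 13204 counts, against 3466 and 20454 in the NOMO-1 control library.

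The levels of the members were otherwise much alike in the 3 lines. Per kilobase of exon (GENCODE 29 gene models of another build), the mean level over the 6 libraries ran from 209 counts per kilobase for CDC25C to 4541 for TOP2A, with NUSAP1 at 2833 and TPX2 at 2625. Taking the knockdown and control libraries of a line together, 43 of 44 members were within 2-fold between SKM-1 and MOLM-14, 42 between SKM-1 and NOMO-1 and 42 between MOLM-14 and NOMO-1. Of all 19575 genes tested, a set not matched to the members for level, 12639, 13314 and 13419 were within 2-fold in the same comparisons. At an adjusted p under 0.05 and at least a 2-fold difference, limma called 0 members between SKM-1 and MOLM-14 (background 15.9%), 0 between SKM-1 and NOMO-1 (background 13.7%) and 2 between MOLM-14 and NOMO-1 (background 13.3%). Those 2 were BUB3, whose line means were 13646 counts in MOLM-14 and 6557 in NOMO-1 (log2 difference 1.06, SE 0.22, limma adjusted p = 0.0433), and UBE2C, at 2201 in MOLM-14 and 57.3 in NOMO-1 (log2 difference 5.27, SE 1.09, limma adjusted p = 0.0433). Neither call held in edgeR, without the filter on low values, or when any of the 4 libraries of those lines was left out, where the count was 0. At any fold, 1 member passed between SKM-1 and MOLM-14 (background 16.3%), CCNF with a log2 difference of 0.90 (limma adjusted p = 0.0460), and 1 between SKM-1 and NOMO-1 (background 13.9%), KIF14 with 0.98 (limma adjusted p = 0.0379).

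Many members share promoter letters. The choice by name did not use these letters directly, but it took known G2/M genes, so the shares below are not independent of it. Promoters of G2/M genes often combine CCAAT boxes, bound by NF-Y, with a cell cycle genes homology region (CHR), bound by MuvB complexes. Windows of 300 bases, 250 before and 50 after each RefSeq gene start in GRCh38.p14, were found for 37 of 44 members and searched on both strands for CCAAT and for TTTGAA or TTCGAA (counted as CHR; TTCGAA reads the same on both strands). CCAAT was present in 29 of 37 (78.4%), against 39.7% of 27305 genes, and a CHR match in 28 (75.7%), against 19.5%. Both were present in 22 (59.5%), against 7.85% of all genes. The SKM-1 log2 ratio had a median of -0.44 (range -1.27 to 0.26) over the 22 members with both matches and of -0.31 (range -1.51 to -0.19) over the 15 without both. The ranges overlap, the 4 members above 1 in SKM-1 are all among the 22, and the difference was not tested. Among those 4, the SKM-1 ratio intervals of CCNF (0.98 to 1.08) and KIF14 (0.98 to 1.06) include 1. A match is a run of letters, not a shown binding site.

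Stretches upstream of 4 members are printed to show the shared letters in genes whose ratios differed: KIF4A and CDC20 had the lowest SKM-1 ratios among genes with a single start and both motifs in an exon-free stretch, and KIF11 and CCNF the highest. They are RefSeq sequence of GRCh38.p14, plus strand, 5′ to 3′, at chrX:70289980-70290089 for KIF4A, chr1:43358731-43358954 for CDC20, chr10:92592880-92593129 for KIF11 and chr16:2429197-2429393 for CCNF. Capitals mark CCAAT, which reads ATTGG on the other strand, and the CHR letters TTTGAA, which read TTCAAA on the other strand, or TTCGAA.
KIF4A: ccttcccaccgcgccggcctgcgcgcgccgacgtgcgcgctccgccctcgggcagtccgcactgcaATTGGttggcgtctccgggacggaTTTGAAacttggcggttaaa
CDC20: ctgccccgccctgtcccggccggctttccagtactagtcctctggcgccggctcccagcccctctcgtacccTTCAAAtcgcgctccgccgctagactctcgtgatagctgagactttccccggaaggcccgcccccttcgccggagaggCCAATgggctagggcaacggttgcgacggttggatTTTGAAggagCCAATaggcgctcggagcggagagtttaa
KIF11: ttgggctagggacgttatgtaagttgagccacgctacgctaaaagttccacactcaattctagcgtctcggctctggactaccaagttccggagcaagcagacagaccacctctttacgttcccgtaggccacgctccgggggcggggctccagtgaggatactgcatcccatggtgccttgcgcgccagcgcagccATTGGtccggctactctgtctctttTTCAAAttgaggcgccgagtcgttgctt
CCNF: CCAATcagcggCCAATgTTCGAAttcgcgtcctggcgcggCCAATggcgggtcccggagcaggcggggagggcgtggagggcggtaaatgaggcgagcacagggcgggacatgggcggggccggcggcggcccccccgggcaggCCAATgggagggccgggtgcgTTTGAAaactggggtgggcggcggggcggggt
CCNF, whose level was nearly the same after knockdown and in controls in every line, had the most matches of the 4, with 4 CCAAT and 2 CHR. KIF4A, 1.89-fold lower in SKM-1, had 1 of each. The printed stretches differ in length, from 110 bases for KIF4A to 250 for KIF11, so their match counts cannot be compared. Any link between matches and ratio was not tested.

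Other genes of the same pathways, listed by role with earlier results of these data known, were set beside the members. For the list counts in SKM-1, the backgrounds are 50.6% lower and 16.5% lower by at least 2-fold. limma, edgeR and DESeq2 each called 0 genes in every one of the 8 lists. The 17 subunits of the anaphase-promoting complex, most of them present throughout the cycle, had medians of log2 0.04, 0.21 and 0.12 in MOLM-14, NOMO-1 and SKM-1. In the last of these lines 7 of 17 were lower. CDC23, one of these subunits, was at 2933, 3907 and 4477 counts after knockdown, against 2397 (MOLM-14), 3067 (NOMO-1) and 3098 (SKM-1) in controls, higher in each line (limma adjusted p = 0.779). The 14 genes of the CDK1 switch and G2 checkpoint had medians of -0.05, 0.05 and 0.06, with MASTL, the Greatwall kinase, at a mean log2 ratio of -0.47 and ARPP19, its substrate, at 0.40. Of 15 DREAM and MYBL2-MuvB regulators 7 were lower in SKM-1, with medians of -0.06, 0.11 and 0.02. MYBL2, named here after its values were seen, was at 5819, 7086 and 6877 counts after knockdown, against 6362, 7689 and 17216 in controls, so that, as for TPX2, the SKM-1 control library was the high one. Its MuvB partners LIN9 and LIN52 had mean log2 ratios of -0.49 and 0.48.

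The lists closest in function to the members also had more lower than higher SKM-1 values, where 50.6% of all genes were lower. Of 34 other kinetochore and centromere genes 27 were lower in SKM-1 (medians 0.04, 0.09 and -0.59), of 28 other spindle and cytokinesis genes 20 (medians -0.06, 0.03 and -0.40), and of 17 condensin, cohesin and separase-control genes 11 (medians -0.03, 0.07 and -0.33). CIT, the citron kinase of cytokinesis, was at 4225, 2436 and 1309 counts after knockdown, against 4986, 4155 and 3194 in controls, and had a mean log2 ratio of -0.76 (limma adjusted p = 0.779). RAD21, the cohesin subunit cut by ESPL1, was at 20759, 20589 and 22592 counts after knockdown, against 26452, 23660.2 and 41122 in controls, lower in each line (limma adjusted p = 0.779). HJURP, the chaperone of CENPA, was also lower in each line, with a mean log2 ratio of -0.34.

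The 24 genes of G1/S and DNA replication had a lower median in SKM-1 than the mitotic genes. It was log2 -1.05, against -0.42 for the 44 members, with 21 of 24 lower and 13 of 24 lower by at least 2-fold, against 6 of 44 members; this difference was not tested. CDT1, which licenses replication origins, was at 5139, 3663 and 2667 counts after knockdown, against 5826, 5726 and 6230 in controls (mean log2 ratio -0.68, limma adjusted p = 0.779). In MOLM-14 and NOMO-1 the medians of this list were 0.00 and 0.01. Among 15 cell cycle brakes 4 were lower in SKM-1, with medians of -0.31, -0.21 and 0.70. CDKN1A, the inhibitor p21, was at 10113, 1158 and 3796 counts after knockdown, against 13672, 1606 and 1038 in controls, and BTG2, an antiproliferative gene, at 2271, 692 and 10864 after knockdown, against 2911, 785 and 552 in controls. Both were named after their values were seen; in SKM-1 CDKN1A was 3.66-fold higher (3.41 to 3.92) and BTG2 19.7-fold higher (18.1 to 21.5), and in the other lines both were lower after knockdown.

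**Figure D4:**
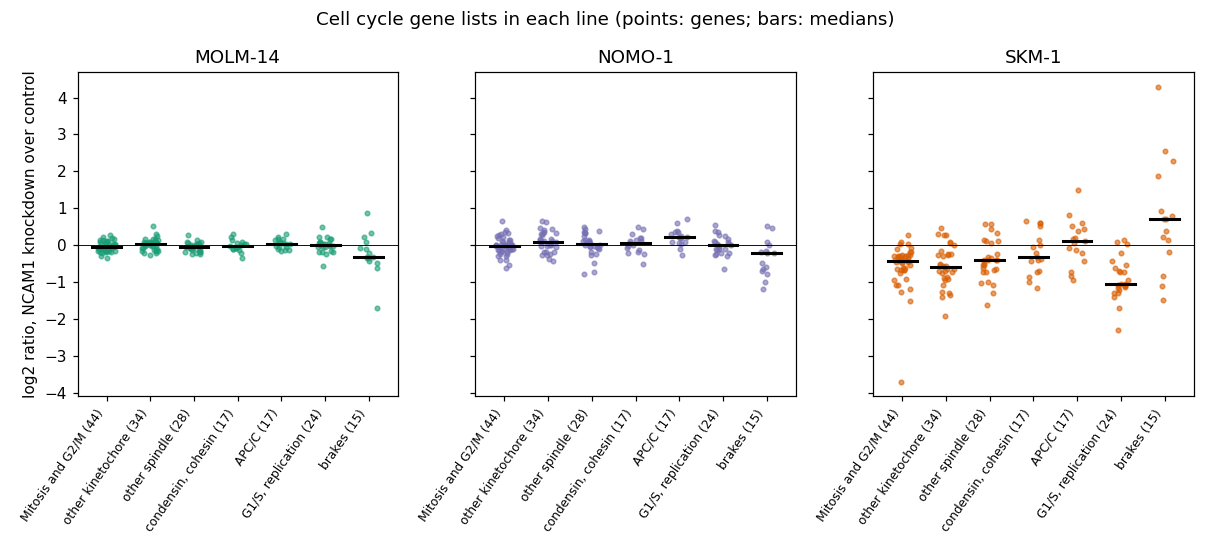
Log2 ratios of NCAM1 knockdown over control by line for the 44 members and 6 of the other lists, with a point per gene, a bar at the median and the number of genes in brackets. In SKM-1 the median of the 44 members is -0.42, that of the G1/S and replication genes -1.05 and that of the cell cycle brakes 0.70, while in MOLM-14 and NOMO-1 the medians stay between -0.31 and 0.21.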

How the data were processed

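Messenger RNA was sequenced from 3 NCAM1 knockdown and 3 control libraries with paired reads of 100 bp. The authors deposited, for each gene, a signal value (its read count after division by the library's size factor) and a log2 value (a transformed count; the sources used here do not name the transformation). Per the submitters' processing notes, the build was hg19 and the tools included STAR, bcl2fastq 1.8.4, DESeq2 1.12.4 and HTSeq 0.6.1p1, with no settings. No source used here states strand use, so overlapping genes cannot be told apart.

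Values came out as whole multiples of 1 step per library for 100% of entries at a tolerance of 0.001, which recovered the reads. Genes with a mean of 10 or more were tested with limma 3.58.1 (R 4.3.3; eBayes with a trend, two-sided; 2 residual and 2.81 prior degrees of freedom) on log2(normalized count + 1). Differences on this scale understate those of low genes. Cell line was a block and calls needed an adjusted p under 0.05. On the recovered reads, the quasi-likelihood test of edgeR 4.0.16 with TMM factors was run, and so was DESeq2 1.42.0. The other alternatives were a pseudocount of 0.5, scaling by total counts, quantiles or the authors' transformation, no minimum or one of 50, no block, each line or library left out, and any fold between lines. The lines pair the libraries: deviations from the group means correlated at 0.850, 0.863 and 0.710 within MOLM-14, NOMO-1 and SKM-1. Intervals cover counting error only. The limma and edgeR steps were run on simulated data with the same knockdown effect in every line. The real ratios differed between lines, so that run does not show what could be detected here.

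The members, role classes and pathway lists were chosen with earlier results of these data known. Values in every library are given for a listed set of members, the 2 members per class with the smallest limma p and the extremes of each line; other members shown in full were added after their values were seen. From each pathway list up to 3 genes by limma p with a mean of 50 or more could be named. Promoter sequences are those of RefSeq for GRCh38.p14, another build than the counts; 7 members had no entry (FOXM1, TTK, TPX2, UBE2C, BIRC5, AURKA and BUB3).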

Additional observations from a re-analysis of the deposited data

Results flagged for a closer look

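UBE2C was lower after knockdown in SKM-1 (log2 ratio -3.70) and higher in NOMO-1 (0.65), a gap of 4.35, with MOLM-14 at -0.10. CENPA was lower in SKM-1 (-0.40) and higher in NOMO-1 (0.40), a gap of 0.81, with MOLM-14 at 0.13. CCNB1 was lower in SKM-1 (-0.27) and higher in NOMO-1 (0.31), a gap of 0.58, with MOLM-14 at 0.06. CCNA2 was lower in SKM-1 (-0.30) and higher in NOMO-1 (0.28), a gap of 0.58, with MOLM-14 at -0.05. The median of the cell cycle brakes was 0.70 in SKM-1 and -0.31 in MOLM-14, a gap of 1.01, with NOMO-1 at -0.21. These were picked out because 2 lines ran in opposite directions by at least 1.2-fold each, the genes also with intervals that leave out a ratio of 1. In all, 22 of 44 members had ratios of opposite sign in NOMO-1 and SKM-1. The matching share of all genes was not obtained, so this count cannot show whether the members differ from other genes. Some of the 22 had a wide gap and a small value in NOMO-1, such as CDC25B (-1.27 in SKM-1 and 0.14 in NOMO-1) and CDC20 (-0.62 in SKM-1 and 0.23 in NOMO-1). With 1 library per line and condition, no difference between lines in the knockdown ratio was tested.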

How the results depend on the processing

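No member passed an adjusted p of 0.05 under any alternative run for the knockdown comparison, and the members' median mean log2 ratio stayed below 0, at -0.15 with total-count scaling, -0.16 with quantile normalization and -0.19 without the cell line block. Leaving out a line gave medians of -0.25 to -0.02, the last without SKM-1, where 12 of 44 members had the opposite sign; leaving out UBE2C, an alternative chosen after seeing the data, gave -0.18. Without the block limma called 0 members and the lowest adjusted p of a member was 0.9999. With or without the block, limma called 0 of 19575 genes, so that NCAM1 itself was not called. The unchanged count of 0 members therefore says little about the members. DESeq2 called 43 of all genes, against 0 in limma, and no member was among them. Leaving out a line gave medians of -0.010 to 0.18 for the anaphase-promoting complex (0.11 with all lines) and of -0.0031 to 0.12 for the CDK1 switch list (0.07 with all lines). Medians also turned sign without SKM-1 for the checkpoint class (0.02, against -0.22 with all lines), the G1/S list (0.03, against -0.30), the condensin and cohesin list (0.04, against -0.13) and the spindle list (0.00022, against -0.19), and without NOMO-1 for the brakes (0.20, against -0.13). The DREAM list, at 0.01, turned to -0.01 without MOLM-14 and -0.02 without NOMO-1. Between SKM-1 and MOLM-14 the count of members called was 0, 1 at any fold and 0 to 2 without single libraries. Between SKM-1 and NOMO-1 it was 0, 2 in DESeq2, 1 at any fold and 0 to 3 without single libraries. Between MOLM-14 and NOMO-1 it was 2, but 0 in edgeR, 0 with no filter, 0 when any single library was left out, and 1 each with the filter of 50, total-count scaling, quantile normalization and the authors' transformed values; the cause was not tested. Libraries held 41916991 reads or more, yet the NOMO-1 ratio of UBE2C rests on 77 reads after knockdown and 47 in the control, and every line has a single pair.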

Other observations

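Outside the members, 6 genes with a mean of 200 or more had line ratios nearest to the members' medians of -0.05, -0.02 and -0.42. They were LLGL1, CTD-2033A16.2, EIF3H, YTHDC2, ZFP14 and FAM122B. LLGL1 was the nearest, at a Euclidean distance of 0.03 on the log2 scale. Likeness here rests on 3 ratios per gene.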
